A study of Arabidopsis thaliana with 12 samples.

Results

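Gene expression was compared between 3 libraries labelled arf2 gnc gnl (arf2-8 gnc gnl in the sample titles) and 3 libraries of the arf2-8 single mutant, called arf2 below, which together are 6 of the 12 arrays of the series. The samples were chosen by their labels alone, and 18976 genes were tested. Every library was made from total RNA of untreated whole seedlings of Arabidopsis thaliana, ecotype Col0, at the age of 10 days. The seedlings were grown under white light of 150 µE in long days on GM medium and were harvested at midday of the light period. The other arrays of the series are 3 of wild type (WT) and 3 of a gnc gnl double mutant of the same age. According to the series design, the 3 samples of a genotype are independent biological samples. The gnc and gnl alleles, and the number of seedlings in a sample, are not given in the sources used here. RNA was measured on one-colour Agilent arrays with Cy3-labelled cRNA. If both sets of labels hold, both groups lack ARF2, and the comparison shows what changes when GNC and GNL are lost as well.

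ARF2 is an auxin response factor, a DNA-binding protein that mostly represses its target genes and through which auxin acts on organ size, seed size and senescence. GNC and GNL (also called CGA1) are a pair of class B GATA transcription factors that promote greening, that is chlorophyll synthesis and the build-up of chloroplasts, and that respond to light, nitrogen and cytokinin. Both GATA genes are known to repress gibberellin responses and to act downstream of gibberellin and auxin signalling.

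Signals are given as a percentage of the 75th percentile of the same array, called the array percentile below, and differences as log2 differences, the labelled libraries minus arf2. All ± values are standard errors (SE) of limma fits with n = 3 per group, except where a spot was removed as an outlier, and adjusted p-values are those of the same fits after Benjamini-Hochberg adjustment across the 18976 genes, with 0.05 as the threshold. The 75th percentile itself ran from 2380 to 2785 signal units in the labelled libraries and from 2051 to 2185 in arf2, and 68.3% to 70.2% of probes were well above background in the former against 64.6% to 66.5% in the latter. Neither measure overlapped between the groups, and its part in the results was not tested. Slide 2 held arf2 replicates 2 and 3 with labelled replicates 1 and 2, whereas arf2 replicate 1 lay on slide 1 with the WT arrays and labelled replicate 3 on slide 3 with the gnc gnl arrays. Levels of different libraries of a group correlated at 0.990 to 0.994 (arf2) and 0.992 to 0.996 (labelled) across genes, which are not independent replicates. All 20 light-harvesting genes of leaves were well above background on all 12 arrays, as were 14 of 18 root markers, while 7 of 11 flower and pollen markers were not well above background on any of the 6 arrays compared.

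The 3 genes of the genotypes come first, as a check of the labels. In the 3 arf2 libraries the signal of ARF2 (AT5G62000) was 2.08%, 0.392% and 3.04% of the mean WT signal, and was well above background in 1 of them. In the libraries labelled arf2 gnc gnl it stood at 56.7%, 54.4% and 70.6% of the WT mean, well above background in all 3. The groups did not overlap, and the log2 difference was 5.48 ± 0.56 (adjusted p = 0.00151). All 3 read below every WT and gnc gnl array and far above every arf2 array. Their log2 difference from WT was -0.73 ± 0.56 and did not pass (adjusted p = 0.507). ARF2 thus went against the label arf2 in these libraries, although all 3 signals read below WT.

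GNC (AT5G56860) stood at 6.38%, 5.66% and 5.62% of the WT mean in the labelled libraries and at 105%, 114% and 112% in arf2. All 3 labelled libraries lay far below every arf2 library, with a log2 difference of -4.23 ± 0.13 (adjusted p = 8.01e-08). The second GNC probe differed by -3.94. For GNC the label held. GNL, listed under the symbol CGA1 in the reference (AT4G26150), read 168%, 180% and 180% of the WT mean in the labelled libraries and 99.7%, 109% and 131% in arf2. In the gnc gnl double mutant, where the label held, it read 6.73%, 2.3% and 2.39%. The labelled libraries therefore lay above those of arf2 without overlap, though the log2 difference of 0.64 ± 0.33 did not pass (adjusted p = 0.228). It passed in a fit of the 6 compared arrays alone (adjusted p = 0.0330, with a range of 0.0216 to 0.572 over the alternatives). ARF2 and GNL were each read by 1 probe, and its place in the transcript is not known here. On these probes, only the GNC part of the label was borne out by the array. These libraries are called the labelled libraries throughout, and every direction below rests on that label. What is compared is a set of libraries low in GNC and a set low in ARF2. In the former, ARF2 signals lay between those of arf2 and WT, and GNL signals above those of WT. The differences of ARF2 and GNL from WT did not pass, with GNL at 0.81 ± 0.33 (adjusted p = 0.214).

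**Figure D1:**
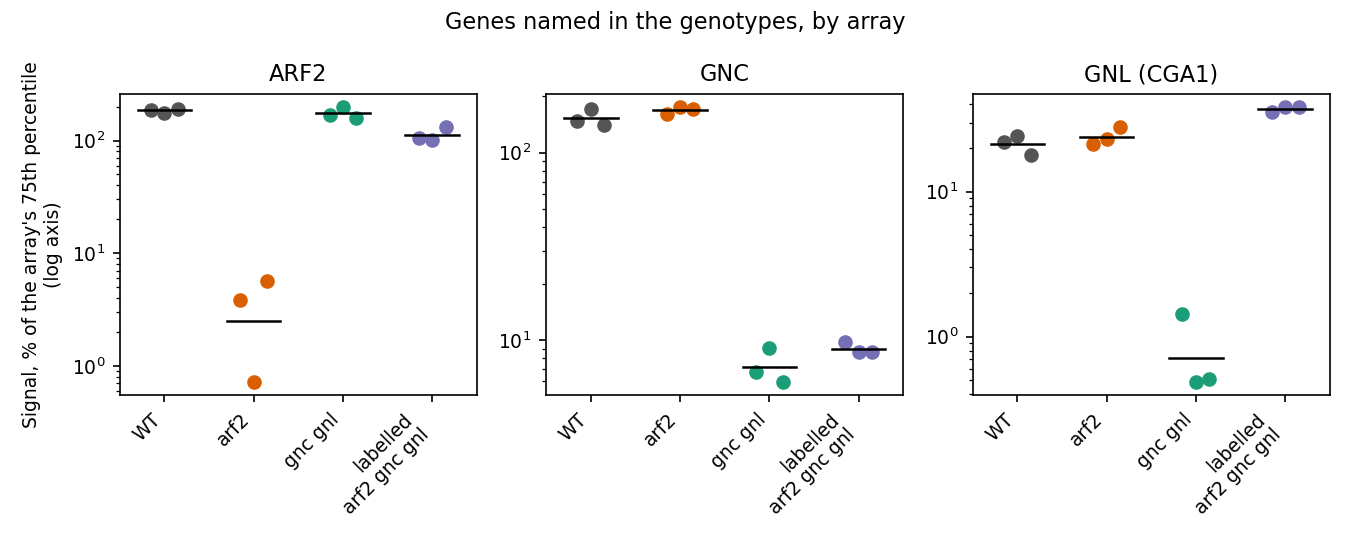
Signal of ARF2, GNC and GNL on each of the 12 arrays, as a percentage of the array percentile on a log axis, by group. Points are arrays and bars are means of log2 values. ARF2 is lowest in arf2 and intermediate in the labelled libraries, GNC is low in gnc gnl and in the labelled libraries, and GNL is low in gnc gnl alone.

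Of the 18976 genes, 1701 passed the threshold, which is 8.96%. They were 811 genes higher in the labelled libraries (4.27%) and 890 lower (4.69%). Most differences were small: the median size among the 1701 was 0.47 log2 units, and 160 genes (0.843%) differed by 1 unit or more, 91 of them higher and 69 lower. Groups did not overlap in 1698 of the 1701 genes, against 6221 (32.8%) of all tested genes. Where a gene that passed is said below to have groups that do not overlap, this is therefore not a further result. Both groups were well above background on all their arrays for 1559 of the genes that passed, while 77 were not well above background on any arf2 array and 7 were not on any labelled array, 6 of them counted in both. The number of calls depended on single libraries. Leaving out arf2 replicate 1 gave 175 genes, arf2 replicate 2 gave 132, arf2 replicate 3 gave 2801, labelled replicate 1 gave 686, labelled replicate 2 gave 155 and labelled replicate 3 gave 500. With slide as a block 56 genes passed, and within slide 2, which has 2 arrays of each group, 17 passed. In all these fits the 1701 genes kept their direction. For the 1698 without overlap this was fixed in advance, since any subset of the arrays gives the same sign, so it is not a further result.

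**Figure D2:**
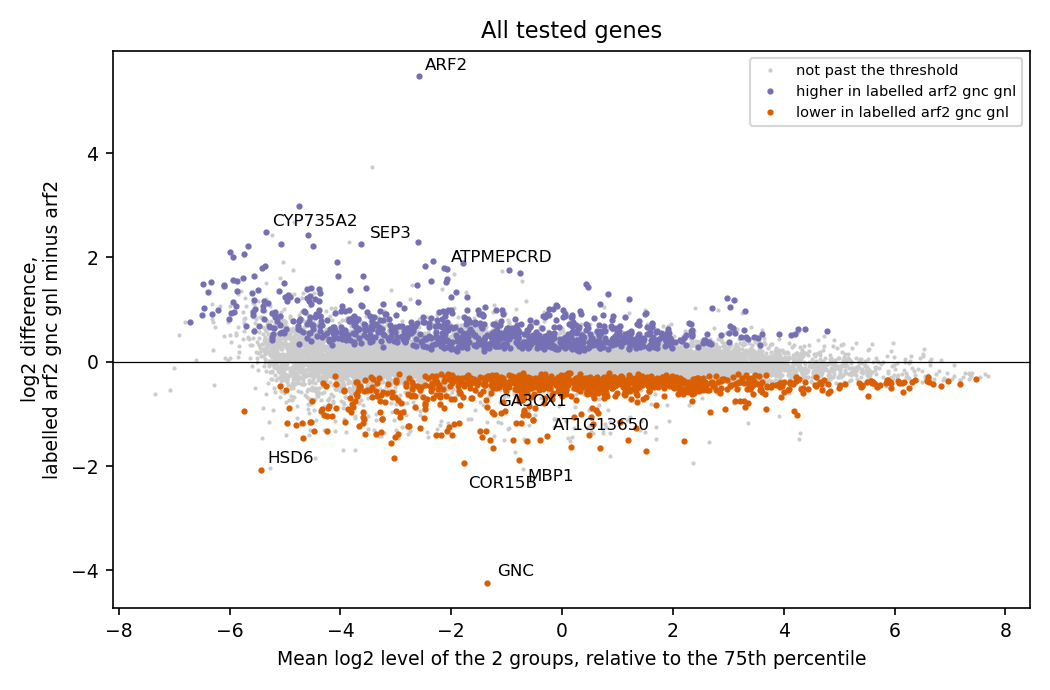
Log2 difference of each tested gene, labelled arf2 gnc gnl minus arf2, against its mean log2 level relative to the array percentile. Coloured points are the 811 genes higher and the 890 genes lower in the labelled libraries. ARF2 lies highest and GNC lowest, and the widest differences among the others are at low levels.

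After ARF2, many of the largest positive differences were in genes near background in arf2. AT1G29090 read 8.65%, 9.43% and 14.2% of the array percentile in the labelled libraries and 0.783%, 1.41% and 2.08% in arf2, where it was not well above background, so that it was at least 3.2-fold higher (adjusted p = 0.00215). CYP735A2 (AT1G67110), a cytokinin trans-hydroxylase that makes the trans-zeatin type of cytokinin, read 4.95%, 10.3% and 3.89% against 0.755%, 0.961% and 1.56%, at least 1.76-fold higher (adjusted p = 0.00797). The genes with the largest differences, described here and below, were picked among calls whose groups did not overlap. Their lack of overlap is thus part of the rule and not a further result. The bound was 1.97-fold for TIM17-1 (AT1G20350), a subunit of the mitochondrial protein import machinery. It was 1.29-fold for SK10 (AT3G21860), an SKP1-like protein of ubiquitin ligases. These bounds hold only for the setting reported. Over the alternatives the log2 differences fell as low as 1.15 for AT1G29090, 0.49 for CYP735A2, 0.41 for TIM17-1 and 0.23 for SK10. Each of these lies below the bound given. For AT2G05915, which was also dim in arf2, no bound above 1 could be given, and its log2 difference of 2.1 ± 0.27 turned to -0.11 under another background correction (normexp).

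SEP3 (AT1G24260), a MADS-box factor of floral organ identity, read 15.5%, 15.2% and 23.8% in the labelled libraries and 3.01%, 3.49% and 4.85% in arf2. Every labelled library lay far above the highest arf2 library, and the log2 difference was 2.26 ± 0.24 (adjusted p = 0.00151). This probe was well above background on 2 of the arf2 arrays. The second SEP3 probe was well above background on 0 of them, so its difference of 2.81 is not a measured size. Over the alternatives the SEP3 difference fell as low as 1.29, with adjusted p up to 0.114. AT3G04210 read 8.70%, 11.3% and 8.97% against 0.736%, 2.42% and 3.23% (2.42 ± 0.43, adjusted p = 0.0143). CRK30 (AT4G11460), a cysteine-rich receptor-like kinase, read 5.89%, 12.3% and 11.7% against 0.978%, 2.42% and 3.63% (2.21 ± 0.60, adjusted p = 0.0443). Both were well above background on all labelled arrays and on 1 arf2 array. The groups did not overlap for these genes, as the rule by which they were picked requires.

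Among genes well above background on all 6 arrays, AT3G29970 had the largest positive difference, with 38.1%, 41.0% and 31.8% in the labelled libraries and 4.37%, 9.06% and 10.5% in arf2 (2.3 ± 0.45, adjusted p = 0.018). NIP2;1 (AT2G34390), a channel of the aquaporin family that low oxygen induces, read 40.4%, 38.3% and 37.4% against 8.59%, 10.2% and 12.1% (1.92 ± 0.39, adjusted p = 0.0189). CML38 (AT1G76650), a calmodulin-like calcium sensor that low oxygen also induces, read 46.4%, 44.7% and 40.7% against 10.5%, 11.6% and 17.1% (1.78 ± 0.30, adjusted p = 0.012). The labelled libraries of these genes were alike and the arf2 libraries all lower. SRO4 (AT3G47720), a relative of the stress regulator RCD1, differed by 1.90 ± 0.43, with the same value on both of its probes (1.90). AT2G29870 differed by 1.84 ± 0.43. ATPMEPCRD (AT2G43050), a pectin methylesterase of the cell wall, read 33.8%, 46.8% and 49.1% against 9.81%, 11.7% and 16.0% (1.80 ± 0.21, adjusted p = 0.00208) and passed without each of the 6 arrays in turn.

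On the lower side, GNC was followed by HSD6 (AT5G50770), of the hydroxysteroid dehydrogenase family, which was not well above background in the labelled libraries (2.34%, 1.32% and 0.465% against 4.91%, 5.42% and 3.97%) and at least 2.22-fold lower there (adjusted p = 0.0277). COR15B (AT2G42530), a cold-induced chloroplast protein, read 16.5%, 13.5% and 15.2% in the labelled libraries and 77.1%, 74.3% and 33.4% in arf2 (-1.94 ± 0.38, adjusted p = 0.0182). The third arf2 library was the lowest of its group and still above all labelled ones. MBP1 (AT1G52040), a myrosinase-binding protein of the glucosinolate defence system, read 30.8%, 28.0% and 32.3% against 121%, 120.0% and 96.4%, with a log2 difference of -1.88 ± 0.14 (adjusted p = 0.000243). AT5G45630 differed by -1.84 ± 0.33 (adjusted p = 0.0145). The remaining 5 were ECP63 (AT2G36640), a late embryogenesis abundant protein, at -1.65 ± 0.37, and 4 loci the reference does not name. AT3G53040 read 220.0%, 165% and 109% against 600.3%, 647% and 359% (-1.71 ± 0.42, adjusted p = 0.0325). AT3G05260 differed by -1.65 ± 0.40, AT5G07330 by -1.63 ± 0.36 and AT1G17010 by -1.56 ± 0.39. In these 5 genes labelled replicate 3 was the lowest of its group and arf2 replicate 3 the lowest of the arf2 libraries.

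The other arrays show where these levels lie, as values from the same fit that share the WT arrays or the compared arrays. For SEP3 the difference from WT was -1.80 ± 0.24 in arf2, 0.46 ± 0.24 in the labelled libraries and 1.45 ± 0.24 in gnc gnl. For CML38 it was -1.82 ± 0.30 in arf2, -0.032 ± 0.30 in the labelled libraries and -1.50 ± 0.30 in gnc gnl. For MBP1 it was 1.43 ± 0.14, -0.45 ± 0.14 and -2.13 ± 0.14 in the same order. CRK30 stood 2.38 ± 0.60 above WT in the labelled libraries and 3.6 ± 0.60 above it in gnc gnl, and at 0.17 ± 0.60 in arf2. For ECP63 arf2 lay at 3.45 ± 0.37, the labelled libraries at 1.80 ± 0.37 and gnc gnl at 0.13 ± 0.37. The counts of genes that passed were 431 for the labelled libraries against WT (2.27%), 1080 for arf2 against WT (5.69%), 2215 for the labelled libraries against gnc gnl (11.7%) and 4664 for gnc gnl against WT (24.6%).

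**Figure D3:**
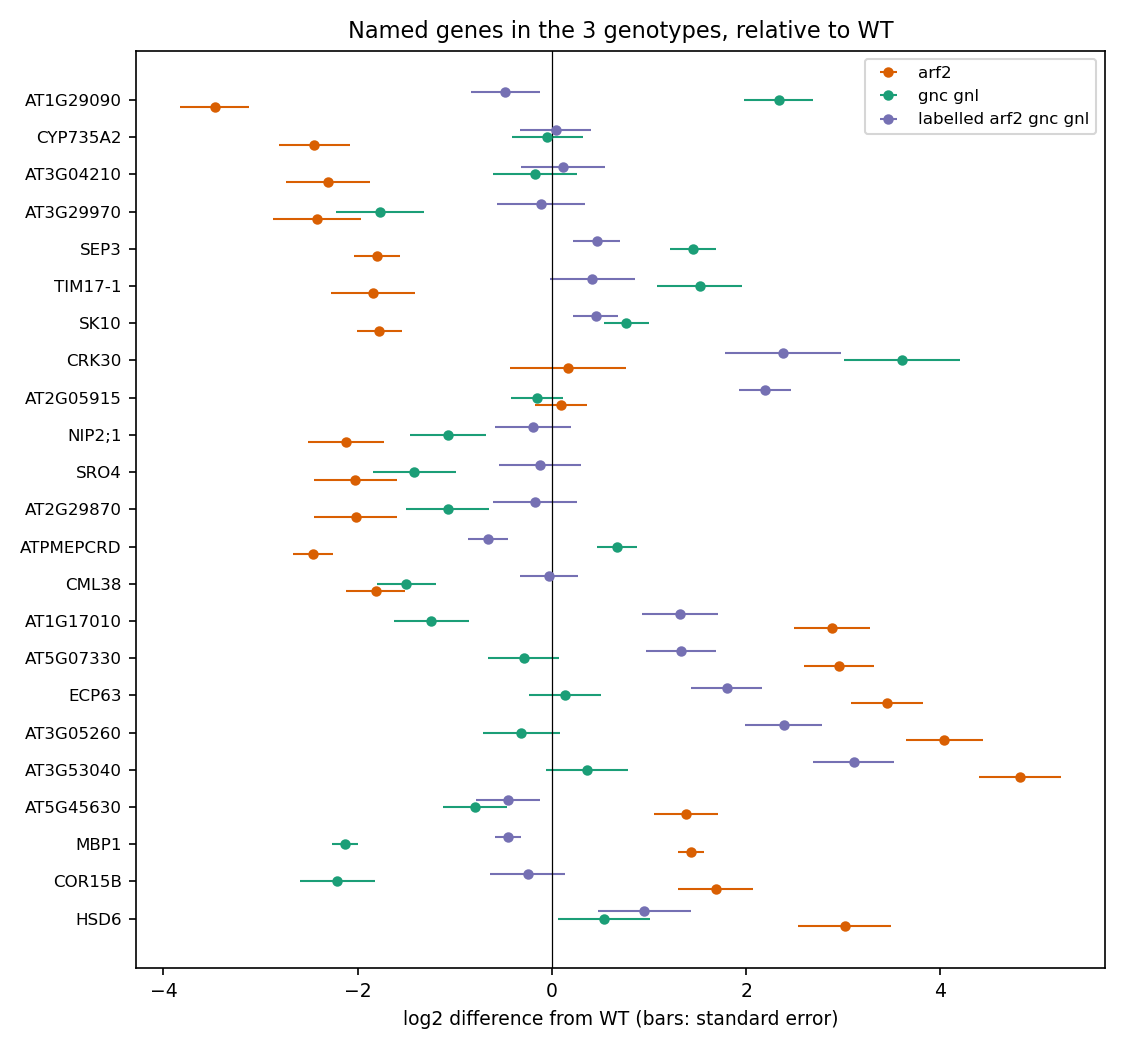
Log2 difference from WT in arf2, gnc gnl and the labelled libraries for the genes with the largest differences between the labelled libraries and arf2, apart from ARF2 and GNC. Points are estimates of the fit over 12 arrays and bars are standard errors. SEP3, for example, lies at -1.80 in arf2, 0.46 in the labelled libraries and 1.45 in gnc gnl.

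Part of the genes of photosynthesis were lower in the labelled libraries than in arf2, most of all those of light harvesting. Of 20 light-harvesting genes, which encode the chlorophyll-binding antenna proteins, 13 were lower and none was higher, where 4.69% of all tested genes were lower and 4.27% higher. The median log2 difference was -0.40, against 0.0069 over all genes tested. All 20 values were below 0 under the percentile scaling, whereas under quantile normalization the median was -0.14, 17 values were below 0 and 6 genes were lower. LHCB4.3 (AT2G40100), an antenna protein of photosystem II, read 117%, 108% and 129% of the array percentile in the labelled libraries and 195%, 171% and 182% in arf2 (-0.63 ± 0.090, adjusted p = 0.0064). LHCB2.3 (AT3G27690), of the main antenna of photosystem II, read 3674%, 3575% and 3730.2% against 6297%, 6008% and 5164% (-0.67 ± 0.10, adjusted p = 0.00893). Neither gene's groups overlapped, and both passed without each of the 6 arrays in turn. LHB1B1 (AT2G34430) differed by -0.47 ± 0.084, with -0.18 to -0.27 on its other probes, and Lhca6 (AT1G19150), of photosystem I, by -0.59 ± 0.12. Near-identical antenna genes, such as CAB2 and CAB3, may share signal on the array. Left out singly, arf2 replicate 1, arf2 replicate 2 and labelled replicate 2 left 2 of the 20 genes lower, and arf2 replicate 3 left 14. With slide as a block 1 gene was lower, at a median of -0.39. From WT, LHCB4.3 differed by 0.56 ± 0.090 in arf2 and -0.075 ± 0.090 in the labelled libraries. LHCB2.3 differed by 0.49 ± 0.10 and -0.18 ± 0.10. The mean log2 level of the 20 genes, relative to the array percentile, was 5.55 to 5.70 in the labelled libraries and 5.94 to 6.10 in arf2. It was 5.70 to 5.91 in WT and 5.59 to 5.89 in gnc gnl, so that arf2 lay above the WT range.

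Of 22 genes for photosystem subunits, 6 were lower, against 4.69% of all tested genes, and none was higher, with a median of -0.32. Under quantile normalization 2 were lower, at a median of -0.060 with 16 of 22 values below 0. PSAL (AT4G12800), a subunit of photosystem I, read 1553%, 1353% and 1389% against 2165%, 2151% and 1882% in arf2 (-0.53 ± 0.094, adjusted p = 0.0143). The subunits PSAH-1 (AT3G16140) and PSAD-2 (AT1G03130) differed by -0.48 ± 0.12 and -0.44 ± 0.11, and PSBY (AT1G67740), of photosystem II, by -0.42 ± 0.11. The 3 labelled libraries lay below the 3 arf2 libraries in each of these genes. Of 10 Calvin cycle genes, PRK (AT1G32060), phosphoribulokinase, was lower (1453%, 1429% and 1642% against 2119.8%, 2018% and 1871%, -0.41 ± 0.097, adjusted p = 0.0296). The median of the 10 was -0.32, and -0.055 under quantile normalization. None of the photosystem or Calvin cycle genes passed when arf2 replicate 1, arf2 replicate 2 or labelled replicate 2 was left out.

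Chlorophyll is made from glutamate through tetrapyrroles. Of 22 genes of this path, 7 were lower in the labelled libraries, against 4.69% of all tested genes. None was higher, and the median was -0.36 (4 lower, median -0.26, under quantile normalization). CRD1 (AT3G56940), a subunit of the cyclase that closes the fifth ring, read 5056%, 5027% and 5295% against 7725%, 7194% and 6833% (-0.50 ± 0.083, adjusted p = 0.0117). PORB (AT4G27440), a light-dependent protochlorophyllide oxidoreductase, read 384%, 425% and 372% against 729.6%, 782% and 508% (-0.75 ± 0.16, adjusted p = 0.0222). All 5 PORB probes gave between -0.66 and -0.80, and on the brightest no labelled library reached the lowest arf2 library. The oxidoreductase gene POR C (AT1G03630) differed by -0.51 ± 0.094, and CH1 (AT1G44446), chlorophyllide a oxygenase, by -0.28 ± 0.066. The first enzyme committed to the path, HEMA1 (AT1G58290), did not pass, at -0.075. None of the 22 passed without arf2 replicate 1, arf2 replicate 2 or labelled replicate 2. Among 12 regulators of greening, the plastid sigma factor gene SIG2 (AT1G08540) was lower (136%, 142% and 143% against 194%, 190.3% and 178%, -0.42 ± 0.083, adjusted p = 0.0183) and the light-signalling factor gene HY5 (AT5G11260) higher (229%, 211% and 239% against 168%, 159.8% and 186%, 0.41 ± 0.098, adjusted p = 0.031). The greening factors GPRI1, also called GLK1, and GLK2 did not pass, at -0.27 and -0.13.

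Of 5 other class B GATA genes tested, 3 were higher in the labelled libraries, in contrast to GNC, against 4.27% of all tested genes. None was lower, while 1 of the 2 that did not pass was below 0. GATA17 (AT3G16870) read 145%, 159% and 151% against 105%, 108% and 103% (0.52 ± 0.083, adjusted p = 0.0101). GATA15 (AT3G06740) read 137%, 145% and 135% against 97.9%, 109% and 104% (0.42 ± 0.080, adjusted p = 0.0164). In both genes the 3 labelled libraries lay above all arf2 libraries. GATA16 (AT5G49300), dim in arf2, was at least 1.18-fold higher, and its difference was -0.21 under normexp. None of the 3 passed without labelled replicate 2, and 1 passed without arf2 replicate 2. Against WT, GATA17 stood at 0.37 ± 0.083 in the labelled libraries, -0.15 ± 0.083 in arf2 and 0.18 ± 0.083 in gnc gnl.

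Of 14 other auxin response factor genes, ETT (AT2G33860), which patterns the gynoecium and leaf, was lower (-0.30 ± 0.073, adjusted p = 0.031), and its relatives ARF1 and ARF18 did not pass, with ARF1 at -0.19 and ARF18 at -0.23. Of 23 Aux/IAA repressors, SHY2 (AT1G04240) was higher (341%, 351% and 358% against 218%, 227% and 287%, 0.53 ± 0.11, adjusted p = 0.0217) and AT4G29080, an Aux/IAA gene that the reference lists as PAP2, was lower (113%, 118% and 129.8% against 154%, 147% and 147%, -0.31 ± 0.066, adjusted p = 0.0202). The groups did not overlap in either gene. A single member each way of 23, like the single member of 14, is near the share over all tested genes (4.27% higher, 4.69% lower) and is no result about the family. Of 18 auxin-induced GH3 and SAUR genes, 4 were higher, against 4.27% of all tested genes, none was lower, and the median was 0.32. SAUR15 (AT4G38850) read 25.7%, 28.3% and 28.7% against 13.5%, 13.4% and 21.7% (0.81 ± 0.19, adjusted p = 0.0273). The SAUR genes AT4G38860 and AT1G29450 differed by 0.46 ± 0.10 and 0.48 ± 0.13. SAUR9 (AT4G36110) differed by 0.58 ± 0.13 on its brighter probe and by -1.41 on another that was above background on 1 of the 6 arrays. None of the GH3 enzymes passed, from -0.33 for GH3.1 to 0.14 for GH3.17. Without arf2 replicate 1, arf2 replicate 2 or labelled replicate 2, no gene of these 3 lists passed.

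**Figure D4:**
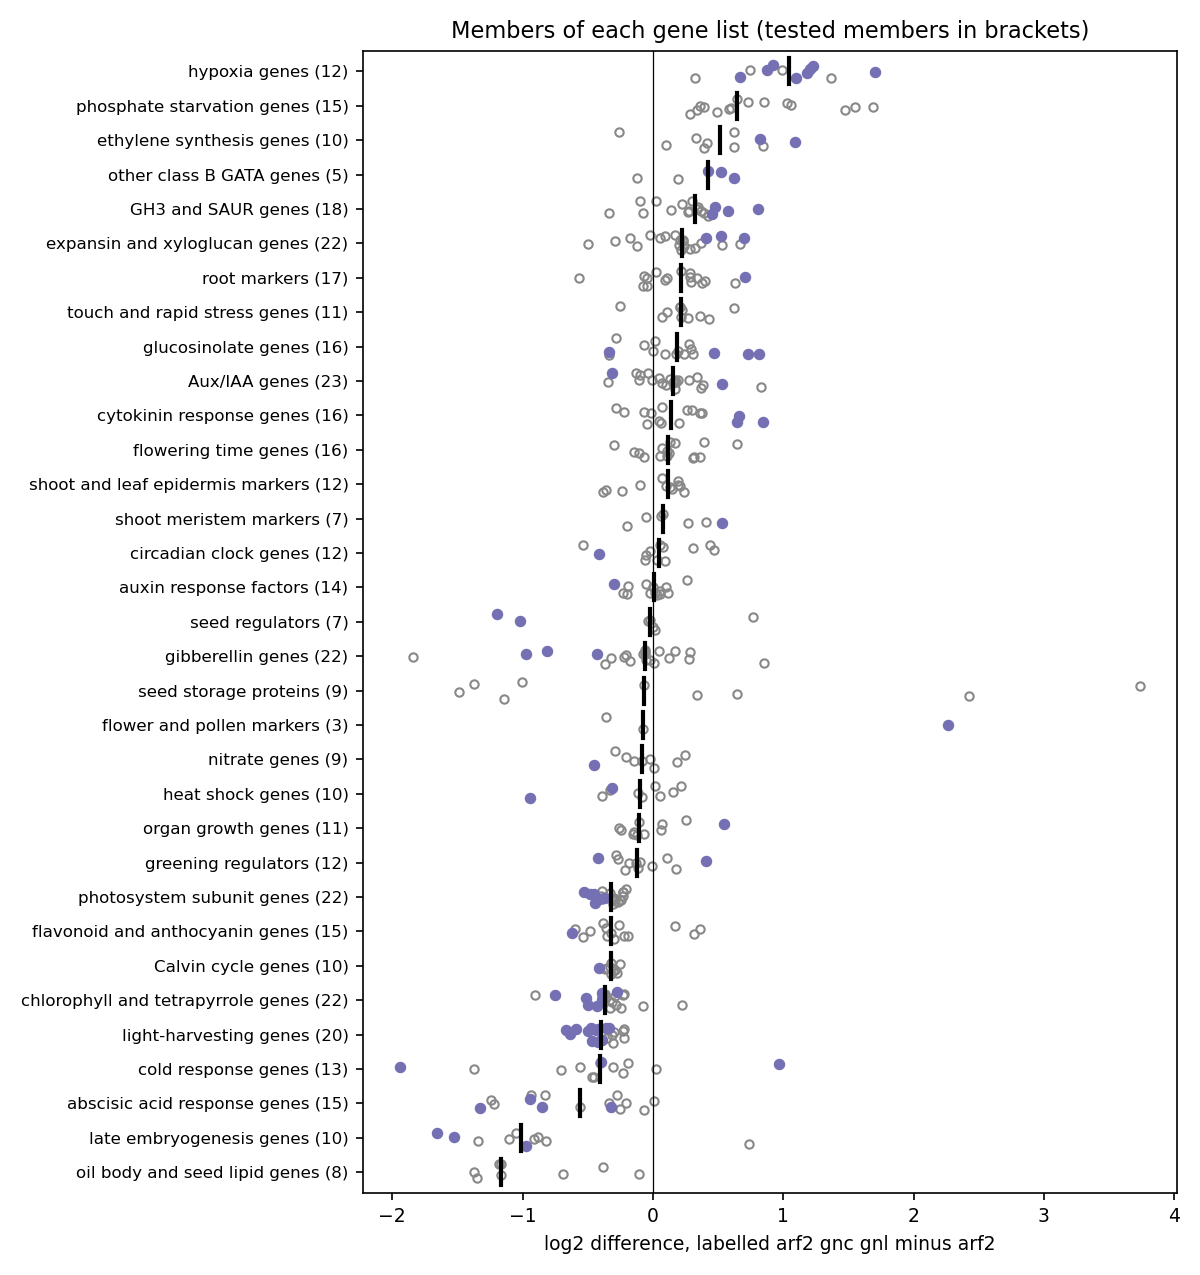
Log2 difference, labelled arf2 gnc gnl minus arf2, of every tested member of each gene list, with the number of tested members in brackets. Filled points passed the threshold, open points did not, and bars are list medians. Hypoxia genes have the highest median (1.05) and oil body and seed lipid genes the lowest (-1.16), the latter without a member that passed.

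Seed transcripts were present in both groups and uneven among the labelled libraries. The mean log2 level of 9 seed storage protein genes, relative to the array percentile, was 0.42, -0.51 and -2.98 in the labelled libraries, and -1.37, -1.07 and -1.32 in arf2, against -6.16 to -4.69 in WT. Labelled replicates 1 and 2 lay above, and labelled replicate 3 below, all arf2 libraries. No storage protein gene passed. The cruciferin gene CRA1 (AT5G44120) read 1933%, 1349.8% and 582% against 3609%, 3972% and 2349% (-1.49 ± 0.69, adjusted p = 0.186), and CRU2 (AT1G03880), another cruciferin gene, read 108%, 43.7% and 8.07% against 1.96%, 2.92% and 2.79% (3.74 ± 1.28, adjusted p = 0.0889). CRA1 thus read below, and CRU2 above, every arf2 library in all 3 labelled libraries, with wide spreads. The 8 oil body and seed lipid genes were all below 0, at a median of -1.16, and none passed. The oleosin gene OLEO2 (AT5G40420) read 151%, 111% and 46.4% against 274%, 247% and 198% (-1.37 ± 0.65, adjusted p = 0.197). In whole seedlings, fewer cells of a type and less RNA per cell cannot be told apart.

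Late embryogenesis abundant proteins protect dry embryos. Of their 10 tested genes, 3 were lower in the labelled libraries, against 4.69% of all tested genes, with a median of -1.01. M17 (AT2G41260) read 339%, 326% and 180.2% against 909.9%, 797% and 650.5% (-1.52 ± 0.30, adjusted p = 0.0175). RAB28 (AT1G03120) read 11.3%, 10.4% and 7.74% against 20.8%, 21.0% and 15.8% (-0.97 ± 0.19, adjusted p = 0.0183), and ECP63 has been described above. Every labelled library was below every arf2 library in the 3 genes. The mean level of the 10 genes was 0.037, -0.23 and -0.71 in the labelled libraries, 0.92, 0.70 and 0.33 in arf2 and -2.34 to -1.89 in WT. Of 7 seed regulators, ABI5 (AT2G36270), a bZIP factor of abscisic acid signalling, was lower (22.2%, 16.4% and 13.7% against 44.5%, 48.4% and 27.9%, -1.20 ± 0.27, adjusted p = 0.0256), as was ABI3 (AT3G24650), a B3 factor of seed maturation (4.74%, 3.80% and 2.56% against 7.46%, 7.72% and 6.63%, -1.02 ± 0.27, adjusted p = 0.0444). FUS3, another B3 factor, did not pass, at 0.018. The 2 lower of 7 seed regulators stand against 4.69% of all tested genes. No gene of these lists passed without labelled replicate 2 or 3, or without arf2 replicate 1 or 2. The storage protein levels moved among the labelled libraries as given above, and their part in these differences was not tested.

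Genes that respond to abscisic acid were lower in part. Of 15, 4 were lower, against 4.69% of all tested genes, none was higher, and the median was -0.56. RAB18 (AT5G66400), a dehydrin, read 1567%, 1146% and 1262% against 3180.5%, 2697% and 1879% (-0.94 ± 0.24, adjusted p = 0.0372), and its 4 probes ran from -0.89 to -1.30. NCED3 (AT3G14440), a dioxygenase of abscisic acid synthesis, read 49.6%, 42.5% and 56.1% against 108%, 88.5% and 72.3% (-0.85 ± 0.23, adjusted p = 0.0421). No library of one group reached the other in these genes. HAI3 (AT2G29380), a protein phosphatase that dampens the signal, differed by -1.33 ± 0.34. The bZIP factor gene ABF4 (AT3G19290) differed by -0.32 ± 0.079 with 2 arf2 values, as 1 spot was an outlier. Its dimmer probe, with all values, differed by -0.38. The mean of its probes gave 0.013, where arf2 replicate 2 has the dimmer probe alone. Of 13 cold response genes, COR15B and COR413-PM1 (AT2G15970) (-0.40 ± 0.11, adjusted p = 0.0428) were lower, and GolS3 (AT1G09350), a galactinol synthase, was higher (8.34%, 9.01% and 9.0% against 3.95%, 5.33% and 4.29%, 0.97 ± 0.16, adjusted p = 0.0117). The list median was -0.40, and the 2 lower and 1 higher of 13 stand against 4.69% and 4.27% of all tested genes. Of 15 flavonoid genes, whose median was -0.32, TT7 (AT5G07990), a flavonoid hydroxylase, was lower (68.9%, 53.6% and 50.1% against 96.6%, 92.9% and 74.5%, -0.62 ± 0.14, adjusted p = 0.026), where 4.69% of all tested genes were lower. Leaving out arf2 replicate 1 or labelled replicate 2 left none of the genes of these 3 lists past the threshold.

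Genes for the last step of gibberellin synthesis were lower. GA3-oxidases make the active gibberellins, and GA3OX1 (AT1G15550) read 32.6%, 30.5% and 26.1% against 66.3%, 60.9% and 48.5% (-0.97 ± 0.13, with -0.97 on both probes, adjusted p = 0.00422). GA3OX2 (AT1G80340) read 6.16%, 5.58% and 4.67% against 11.1%, 8.57% and 9.07% (-0.81 ± 0.17, adjusted p = 0.0192). The labelled libraries lay below all arf2 libraries in both. RGL3 (AT5G17490), a DELLA repressor of the response, was lower by a smaller amount (-0.43 ± 0.091, adjusted p = 0.0222). The 3 were those that passed of 22 gibberellin genes with a median of -0.060, and none was higher. Of all tested genes 4.69% were lower. GA20OX3 (AT5G07200), which acts before the GA3-oxidases, had the widest difference but did not pass (-1.84 ± 0.76, adjusted p = 0.144). GA3OX1 passed without each of the 6 arrays in turn. Its difference from WT was 1.09 ± 0.13 in arf2, 0.11 ± 0.13 in the labelled libraries and 0.34 ± 0.13 in gnc gnl.

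Of 16 cytokinin genes, 3 were higher, against 4.27% of all tested genes, and none was lower, with a median of 0.14. CKX1 (AT2G41510), an oxidase that breaks cytokinins down, read 9.34%, 9.87% and 9.79% against 5.79%, 5.35% and 5.02% (0.85 ± 0.12, adjusted p = 0.00532), and passed without each array in turn. CKX4 (AT4G29740), of the same family, differed by 0.66 ± 0.16 and ARR3 (AT1G59940), a response regulator that cytokinin induces, by 0.65 ± 0.17. The arf2 libraries of CKX1 were all lower than the labelled ones. Of the 6 fits that leave out 1 array, CKX4 passed in 2 (without arf2 replicate 3 or labelled replicate 1) and ARR3 in 0, with adjusted p from 0.0506 to 0.117. Over all alternatives the differences fell as low as 0.22 for CKX1, 0.057 for CKX4 and 0.18 for ARR3. Adjusted p reached 0.766, 0.959 and 0.768 in the same order. Of 10 ethylene synthesis genes, the ACC oxidase gene ACO1 (AT2G19590) was higher (152%, 119.8% and 136% against 68.3%, 59.3% and 63.7%, 1.09 ± 0.24, adjusted p = 0.025), as was ACS7 (AT4G26200), an ACC synthase (0.82 ± 0.18, adjusted p = 0.0218), though ACS7 stood at -0.084 under normexp. The list median was 0.52 (0.034 under normexp), and the 2 higher of 10 stand against 4.27% of all tested genes. Neither ethylene gene passed without arf2 replicate 1, arf2 replicate 2, labelled replicate 1 or labelled replicate 2.

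Most genes of the list induced by low oxygen were higher in the labelled libraries. Of 12, 8 were higher, against 4.27% of all tested genes, none was lower, and the median was 1.05. ADH1 (AT1G77120), alcohol dehydrogenase, read 1522%, 1124% and 1253% of the array percentile in the labelled libraries and 579%, 617% and 511% in arf2 (1.18 ± 0.33, adjusted p = 0.0482). SUS4 (AT3G43190), a sucrose synthase, read 384%, 329% and 343% against 154%, 155% and 147% (1.21 ± 0.28, adjusted p = 0.0272). HB1 (AT2G16060), a non-symbiotic haemoglobin, read 1382%, 1129.9% and 1111% against 497%, 447% and 605% (1.23 ± 0.27, adjusted p = 0.025). The lowest labelled library lay well above the highest arf2 library in each of these genes. AT5G10040 differed most, with 132%, 116% and 77.9% against 34.1%, 29.6% and 34.1% (1.70 ± 0.32, adjusted p = 0.0166). ERF73 (AT1G72360), an ethylene response factor, differed by 0.67 ± 0.17, and ERF71 did not pass at 1.37 (adjusted p = 0.0522).

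The mean log2 level of the 12 hypoxia genes was 1.12, 0.72 and 0.75 in the labelled libraries and -0.11, -0.24 and -0.15 in arf2. It was 0.46 to 1.14 in WT and -0.39 to 0.74 in gnc gnl. The labelled libraries thus lay within the WT range, and arf2 below it. All 12 differences stayed above 0 under every alternative listed in the plot of calls by setting, but few calls did. None passed under normexp, with slide as a block, or without arf2 replicate 1, arf2 replicate 2 or labelled replicate 2, and 1 passed without labelled replicate 1 or 3. Within slide 2 the median was 1.16 and 1 gene passed. NIP2;1 and CML38, described above, were not on this list.

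Among nutrient and stress lists, all 15 phosphate starvation genes were above 0 at a median of 0.65, and none passed. The monogalactosyldiacylglycerol synthase gene MGDC (AT2G11810), which remakes membrane lipids under phosphate shortage, read 60.8%, 70.7% and 23.3% against 5.86%, 28.2% and 18.0% (1.69 ± 0.63, adjusted p = 0.114). The regulator gene SPX1 (AT5G20150) read 881%, 904% and 526% against 256%, 628% and 308% (1.03 ± 0.34, adjusted p = 0.0801). Arf2 replicate 2 was the highest arf2 library and labelled replicate 3 the lowest labelled one, and the groups overlapped. Of 9 nitrate genes, GLU1 (AT5G04140), the ferredoxin-dependent glutamate synthase of leaves, was lower (675%, 712% and 733% against 943%, 1049.7% and 912%, -0.45 ± 0.072, adjusted p = 0.00998), and did not pass without arf2 replicate 2. Of 10 heat shock genes, the chaperone gene HSP90.1 (AT5G52640) was lower (-0.31 ± 0.079, adjusted p = 0.0389), and so was HSP17.4 (AT3G46230) (adjusted p = 0.0189), which was not well above background on any of the 6 arrays, so that no fold is given. The 2 lower of 10 heat shock genes stand against 4.69% of all tested genes. None of 11 touch and rapid stress genes passed, with a median of 0.21. At an unadjusted p under 0.05, 5233 of all genes differed.

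Of 22 expansin and xyloglucan-modifying genes, which loosen the cell wall, 3 were higher, against 4.27% of all tested genes, and none was lower. Their median was 0.23. XTH24 (AT4G30270) read 295%, 359% and 354% against 180.0%, 176% and 276% (0.70 ± 0.16, adjusted p = 0.0251), and its 5 probes ran from 0.59 to 0.74. XTH31 (AT3G44990) read 1339%, 1567% and 1507% against 1045%, 915% and 1115% (0.52 ± 0.12, adjusted p = 0.0294). XTH18 (AT4G30280) differed by 0.41 ± 0.094. Of 11 organ growth genes, ARL (AT2G44080), which promotes cell expansion, was higher (208%, 196% and 187% against 123%, 120.3% and 166%, 0.54 ± 0.14, adjusted p = 0.0368), while the cell number genes ANT (-0.10) and CYCD3;1 (-0.15) did not pass. None of these calls held without arf2 replicate 1, arf2 replicate 2 or labelled replicate 2.

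Glucosinolates are sulphur-rich defence compounds. Of 16 genes of their synthesis 3 were higher and 1 lower, against 4.27% and 4.69% of all tested genes. IMS2 (AT5G23020), also called MAM3, lengthens the methionine chain of the aliphatic class and read 172%, 168% and 182% against 112%, 105% and 97.7% (0.73 ± 0.11, adjusted p = 0.00833). It passed without each of the 6 arrays. CYP79F2 (AT1G16400) (0.82 ± 0.19) and CYP83A1 (AT4G13770) (0.47 ± 0.12), of the same class, were higher too, but CYP79F2 passed only without arf2 replicate 3 among the 6 fits that leave out 1 array, and CYP83A1 in 0 of them. CYP79B3 (AT2G22330), of the class made from tryptophan, was lower (455%, 488% and 429% against 643%, 552% and 543%, -0.34 ± 0.087, adjusted p = 0.0374), and of those 6 fits passed only in the one without arf2 replicate 3. The list median was 0.18. None of 16 flowering time genes passed, with FLC at 0.11 and SVP at -0.11, and 1 of 12 circadian clock genes was lower, RVE1 (AT5G17300) (-0.42 ± 0.11, adjusted p = 0.0489, with 2 arf2 values).

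Markers of tissues differed in few genes. Of 17 root markers, SMB (AT1G79580), a NAC factor of the root cap, was higher (7.42%, 5.77% and 5.86% against 3.27%, 4.31% and 4.11%, 0.70 ± 0.19, adjusted p = 0.0445), and the list median was 0.22 (-0.045 under normexp). A count of 1 of 17 is near the 4.27% of all tested genes, and SMB passed in 1 of the 6 fits that leave out an array, without arf2 replicate 3. None of 12 shoot and leaf epidermis markers passed (median 0.12). Of 7 shoot meristem markers, CUC2 (AT5G53950), a boundary factor, passed at 0.53 ± 0.13 on a probe not well above background in arf2, but its second, dim probe stood at -0.59. SEP3 was the one gene that passed of the 3 flower and pollen markers tested. The floral homeotic gene PI did not pass, at -0.075. Likewise, the single calls in the lists of greening regulators, Calvin cycle, nitrate, clock, organ growth and shoot meristem genes are too few to set these lists apart from all tested genes.

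Slide 2 holds 2 arrays of each group, and the fit with slide as a block takes its estimate from these 4 arrays. ARF2 stood there at 5.67 (adjusted p = 0.0334 with the block), GNC at -4.23 (adjusted p = 5.49e-05) and GNL at 0.54 (adjusted p = 0.572). SEP3 stood at 1.90, AT1G29090 at 2.40, ATPMEPCRD at 1.54, MBP1 at -1.87 and LHCB4.3 at -0.65, and these passed with the block. CML38 (1.69), AT5G10040 (1.96), COR15B (-1.74) and GA3OX1 (-0.79) did not pass with it. Their direction was fixed in advance by the lack of overlap between the groups. List medians on slide 2 were -0.39 for light-harvesting genes, -0.34 for photosystem subunits, -0.33 for chlorophyll genes and -0.35 for Calvin cycle genes. The median was 0.41 for the class B GATA genes, -0.75 for late embryogenesis genes, -0.52 for oil body genes, -0.50 for abscisic acid genes and 0.63 for phosphate genes. The storage protein median turned from -0.069 to 0.29. Apart from ARF2 and GNC, LHCB4.3 and SEP3 were the members of all lists that passed with the block.

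Some calls held whichever array was left out. Without each of the 6 arrays in turn, 66 genes higher and 41 lower in the labelled libraries passed, among them 14 of the 87 named genes past the threshold. With slide as a block as well, 49 passed, 26 higher and 23 lower, and 19 of these also passed under normexp, 6 higher and 13 lower. The genes named in this and the next paragraph were picked from these after their values were seen, except ARF2, GNC, MBP1 and LHCB4.3. MBP2 (AT1G52030), another myrosinase-binding protein that may share probe signal with MBP1, read 93.1%, 81.9% and 84.0% against 239%, 255% and 193% (-1.40 ± 0.11, adjusted p = 0.000359). These values are of its brighter probe, and its second probe, also well above background in both groups, differed by only -0.33. PGL5 (AT5G24420), of the 6-phosphogluconolactonase family, read 47.2%, 39.7% and 49.3% against 121%, 126% and 137% (-1.50 ± 0.14, adjusted p = 0.00101). AT1G13650 read 48.2%, 46.9% and 56.9% against 132%, 143% and 132% (-1.43 ± 0.16, adjusted p = 0.00195). All labelled libraries were well under the lowest arf2 library in these genes. NAP (AT1G69490), a NAC factor of leaf senescence, differed by -1.15 ± 0.13, AT3G10330 by -1.12 ± 0.13, FBA5 (AT4G26530), a fructose-bisphosphate aldolase, by -0.86 ± 0.11, HPL1 (AT4G15440), hydroperoxide lyase, by -0.73 ± 0.079 and SIG4 (AT5G13730), a plastid sigma factor, by -0.60 ± 0.076.

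On the higher side of the 19 genes, UMAMIT17 (AT4G08300), a transporter of a family that exports amino acids, read 29.5%, 33.3% and 36.9% against 13.2%, 10.4% and 10.5% (1.55 ± 0.14, adjusted p = 0.000923). AT5G11330 read 279%, 287% and 274% against 88.7%, 115% and 142% (1.31 ± 0.14, adjusted p = 0.00151). BPS3 (AT4G01360), of the BYPASS family, read 49.4%, 45.6% and 45.7% against 20.1%, 19.1% and 20.7% (1.23 ± 0.13, adjusted p = 0.00175). In all 3 the labelled libraries were alike and lay above each arf2 library. AT2G27402 differed by 0.92 ± 0.10 and AT1G55450 by 0.86 ± 0.11. From WT, UMAMIT17 differed by -1.80 ± 0.14 in arf2, -0.25 ± 0.14 in the labelled libraries and 0.77 ± 0.14 in gnc gnl. AT1G13650 differed by 0.40 ± 0.16, -1.03 ± 0.16 and -2.56 ± 0.16 in the same order, and NAP by 0.13 ± 0.13, -1.01 ± 0.13 and -1.74 ± 0.13. Among genes that passed without each array and with slide as a block, but not under normexp, CEP1 (AT5G50260), a cysteine endopeptidase of dying cells, was higher (1.52 ± 0.17), and CYP707A2 (AT2G29090), which inactivates abscisic acid, was lower (-1.06 ± 0.13), as was AMT1;4 (AT4G28700), an ammonium transporter (-0.89 ± 0.11).

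**Figure D5:**
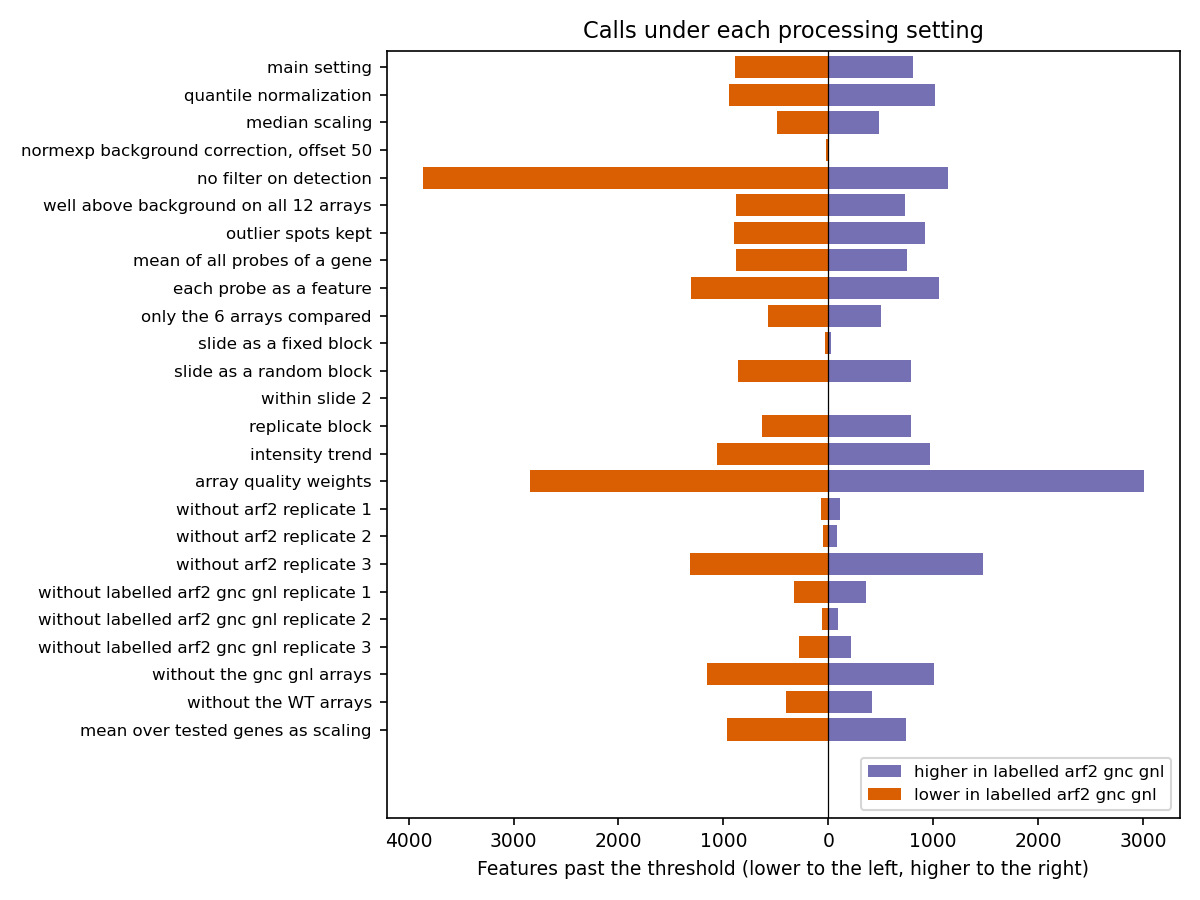
Number of genes (or probes, where each probe is a feature) past the threshold under each setting, lower in the labelled libraries to the left and higher to the right. The count is 1701 in the setting reported, 25 under normexp, 17 within slide 2 and 5854 with array quality weights.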

How the data were processed

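RNA was measured on 12 one-colour arrays, and the deposited values are the intensity of each spot (the processed green signal) after background subtraction, per the file headers, read with Agilent Feature Extraction 10.7.3.1, per the submitters' processing notes. The deposited value table held the same numbers (0 cells differed). Groups were taken from the labels. Log2 intensity was scaled to each array's 75th percentile. Control and outlier spots were left out. The probe with the highest mean stood for a gene, and was tested when its signal was well above background on the 3 arrays of 1 genotype or more and each genotype kept at least 2 values. This gave 18976 genes from 25383 loci on 34285 probes; 9318 probes had no locus. Locus names came from the TAIR10.1 RefSeq table.

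One limma 3.58.1 fit over the 12 arrays (R 4.3.3) gave the differences and adjusted p-values; it was tested on simulated data. The p-values measure the spread between these samples, and the number of arrays limits their precision. Where every array of a group was near background, a bound replaced the fold: the mean of the other group against the detection floor of each array. The bounds apply to the setting reported and not to the alternatives. The packages data.table (version 1.17.8) and matplotlib (version 3.10.9) were also used.

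Named were ARF2, GNC and GNL, the 10 largest non-overlapping calls each way, the 6 each way among genes above background on all 6 arrays, and up to 4 called members of each list with the smallest p; other genes were picked after their values were seen. The comparison and the lists were chosen with earlier results of these data known. Deviations of same-numbered libraries from their group means correlated at 0.208, 0.0414 and 0.0581, so the numbers were not taken to pair samples. Alternatives covered scaling, background correction (normexp on the median signals, offset 50), filters, probe summaries, slide, replicate block, spread and each array left out.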

Additional observations from a re-analysis of the deposited data

Results flagged for a closer look

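For 88 named genes, the log2 difference between the labelled libraries and arf2 was tested against the log2 difference between gnc gnl and WT, as an interaction in the limma fit with adjustment over all tested genes. If the labels held, both contrasts would show the loss of GNC and GNL, in plants without and with ARF2. The 20 genes below had differing values (adjusted p from 0.000779 to 0.0491), and 68 did not pass. The named genes were chosen by the first of the 2 contrasts, so that these tests are not independent of the choice. The value given is the first contrast minus the second. The genes of the genotypes themselves gave 5.56 for ARF2 and 5.55 for CGA1 (GNL), while GNC, at 0.19, did not pass. ARF2 was well above background on 1 arf2 array only, and GNL read 1.43%, 0.49% and 0.509% of the array percentile in gnc gnl. The sizes of both thus rest in part on signals near background. Genes whose first contrast was the higher were AT3G29970 (4.07), SRO4 (3.32), CML38 (3.28), AT5G10040 (3.14), NIP2;1 (2.99), AT2G29870 (2.92), CYP735A2 (2.53), AT2G05915 (2.26), HSP17.4 (1.77), SK10 (1.46) and CKX4 (0.98). CYP735A2, AT2G05915 and SK10 were not well above background on any arf2 array, and HSP17.4 not on any of the 6 arrays, so the values of these 4 are computed from signals at background and are not measured sizes. Genes whose first contrast was the lower were M17 (-2.52), GA3OX1 (-1.32), RAB28 (-1.31), GA3OX2 (-1.11), TT7 (-0.98), LHCB4.3 (-0.94) and XTH18 (-0.57). XTH18 was higher in the labelled libraries than in arf2 (0.41) and higher still in gnc gnl than in WT (0.98 ± 0.094). GA3OX1 stood at -0.97 in the first contrast and 0.34 ± 0.13 in the second, and LHCB4.3 at -0.63 and 0.31 ± 0.090. Because ARF2 and GNL went against the label, the first contrast does not isolate the loss of GNC and GNL. No other gene among the 88 met a criterion for a closer look, and the groups of 3 arrays are too small for a test of single outlying arrays.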

How the results depend on the processing

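The number of genes past the threshold (1701, of which 811 were higher and 890 lower) depended on the setting, and the cause was not tested except where the setting leaves out arrays or features. It was 966 (481 higher, 485 lower) with median scaling, 25 (7 and 18) with normexp, 5009 (3867 lower) without the filter on detection, 1081 (508 and 573) with the 6 compared arrays alone and 817 (416 and 401) without the WT arrays. It was 56 (30 and 26) with a slide block, 17 (12 and 5) in slide 2 alone, 5854 (3008 and 2846) with array quality weights and 160 (91 and 69) with a log2 difference of at least 1. Leaving out single arrays gave 132 to 2801 genes, 81 to 1479 higher and 51 to 1322 lower. The share of higher genes was 47.7%, and 28% with normexp. Fitting the replicate block gave 1418 genes (789 and 629). Of the 1701, 1603 kept their direction with normexp. Of 85 named genes, 2 passed with normexp, 8 with slide as a block and 72 with the replicate block.

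ARF2 did not pass within slide 2 (5.67, adjusted p = 0.122). GNL passed with the 6 arrays alone (0.64, adjusted p = 0.0330), with array weights (0.67, adjusted p = 0.0481) and without the gnc gnl arrays (0.64, adjusted p = 0.0216). Without single arrays ARF2 ran from 4.58 to 6.06, GNC from -4.29 to -4.20 and GNL from 0.56 to 0.76. Signs turned for AT2G05915 (-0.11), GATA16 (-0.21), ACS7 (-0.084) and CUC2 (-0.32) with normexp, and for SAUR9 (-0.42), ABF4 (0.013) and CUC2 (-0.032) when probes were averaged. For ABF4 the mean in arf2 replicate 2 is of the dimmer probe alone, and each probe by itself was below 0. The normexp fit used signals near background, which limit dim genes. Only slide 2 holds both groups, so both of these fits give the same estimates. The fits without WT or gnc gnl arrays, and a scaling to the mean level of tested genes (1708 genes), were chosen after seeing the data. The deposited value table was identical and was not run separately.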

Other observations

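Genes beside those of the genotypes were read as well, chosen after their values were seen. Next to GNL, BGAL12 (AT4G26140), a beta-galactosidase, was higher in the labelled libraries (59.3%, 71.0% and 56.9% of the array percentile against 29.1%, 29.2% and 35.4% in arf2, 1.0 ± 0.12, limma adjusted p = 0.00208). Relative to WT it stood at 0.78 ± 0.12 in the labelled libraries, -0.22 ± 0.12 in arf2 and 1.46 ± 0.12 in gnc gnl. On the other side of GNL, ACHT1 (AT4G26160), a thioredoxin of chloroplasts, was lower (-0.38 ± 0.076, adjusted p = 0.0184). The other tested neighbours of GNL, AT4G26130 (0.056) and AT4G26190 (-0.19), did not pass. Of the 4 tested neighbours of GNC, BGAL4 (AT5G56870), another beta-galactosidase, was higher (163%, 194% and 171% against 82.0%, 73.3% and 120.3%, 0.97 ± 0.17, adjusted p = 0.0146). Further out, AT5G56880 was higher (0.39 ± 0.085, adjusted p = 0.0222) and AT5G56840 lower (3.68%, 3.53% and 3.77% against 8.35%, 5.67% and 9.08%, -1.04 ± 0.28, adjusted p = 0.0439). AT5G56850, directly beside GNC among the tested genes, did not pass (-0.020). Of all tested genes 8.96% passed. None of the 4 tested neighbours of ARF2 passed, with values from -0.22 for HSFB2A to 0.24 for AGD1.

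Some other genes that passed without each of the 6 arrays in turn are given here, picked after their values were seen. RBOHB (AT1G09090), an NADPH oxidase that makes superoxide, was higher (15.7%, 13.3% and 13.3% against 4.46%, 4.57% and 7.07%, 1.42 ± 0.19). NAS3 (AT1G09240), a nicotianamine synthase of metal transport, was not well above background in arf2 and at least 3.31-fold higher in the labelled libraries (limma adjusted p = 0.00815). BR6OX1 (AT5G38970), of brassinosteroid synthesis, was higher (0.68 ± 0.11), as was the amino acid transporter gene LHT1 (AT5G40780) (0.59 ± 0.092). SPS3F (AT1G04920), a sucrose phosphate synthase, was lower (7.81%, 8.06% and 6.36% against 13.6%, 14.0% and 15.5%, -0.96 ± 0.11), as were GLDP1 (AT4G33010), the glycine decarboxylase of photorespiration (-0.80 ± 0.12), and the trichome patterning gene TRY (AT5G53200) (-0.86 ± 0.12). The groups did not overlap in any of these 7 genes, as in nearly all genes that passed, so this is not a further result. With slide as a block, SPS3F and BR6OX1 passed and the other 5 did not.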
